A study of Mus musculus with 7 samples.

Results

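Rad21 is a subunit of cohesin, and in female mouse liver 1279 of the 67228 Rad21 peaks on autosomes lay at the 3′ end of a protein-coding gene. A peak was counted there when its summit was within 1 kb of the annotated gene end and over 2 kb from every annotated transcript start. Every sample was liver of female Crl:CD1(ICR) mice, an outbred strain, at 8 weeks of age, with no treatment or genotype given in the labels. Chromatin of 4 livers was precipitated with an antibody to CTCF and chromatin of 3 livers with an antibody to Rad21. The libraries of each antibody were pooled by the authors before peaks were called, so each factor gives 1 peak list, variation between livers cannot be estimated, and no p-value is given. The lists hold no read counts, so the read depth behind a peak is unknown from them, and they hold no expression, so the tissue label could not be checked against marker genes. Intervals are at the 95% level and cover counting error only, since neighbouring peaks of 1 pool are not replicates.

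Cohesin is a ring that holds DNA and enlarges chromatin loops until it meets a barrier, most often CTCF bound to its motif. It is loaded with the help of Nipbl and can be moved along genes by transcription. In yeast it collects between genes transcribed towards each other, and in mouse cells that lack CTCF and the release factor Wapl it collects at the ends of active genes. In the liver, cohesin without CTCF is known mostly from enhancers and promoters bound by tissue transcription factors. Following the names used by the study, Rad21 peaks that overlap a CTCF peak by at least 1 bp are called CAC (cohesin-and-CTCF) and those that do not are called CNC (cohesin-non-CTCF).

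The CTCF motif was read from the sequence itself. A matrix of 20 bases was learned around the summits of the 1000 strongest CTCF peaks on odd-numbered autosomes, and its most frequent bases read GTGGCCACCAGGGGGCGCCA. A match was called where the best score within 100 bp of a Rad21 summit reached 13.6 bits, a score met in 1% of 55849 flanking windows without a peak. The following matches in mm9 show what the strongest CAC peaks at gene ends contain, with the motif in capitals and 5 neighbouring bases on each side, each written 5′ to 3′ on the strand of the motif. Sfpi1 (chr2:90955409-90955428, + strand, in a coding exon), Cyp4f16 (chr17:32688242-32688261, + strand) and Gm9705 (chr17:32772178-32772197, + strand) carry the motif inside the gene and on its own strand. Csrp1 (chr1:137649663-137649682, − strand) and Ebf1 (chr11:44821802-44821821, − strand) carry it beyond the gene end, on the opposite strand.
Sfpi1: gatgaCCTACCAGAAGATGGCGCGCgcgct
Cyp4f16: cacccAGAGCCATCAGAGGGCGCTGcagga
Gm9705: cacagAACGCCAGCAGGGGGCGCTAgaggg
Csrp1: cctgcATGGCCAGCAGAGGGCAGCCtgtct
Ebf1: tggctCATGCCAGCAGAGGGCAGCAgtacg

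The next matches belong to gene ends that face a convergent neighbour, Ckb (chr12:112906737-112906756, + strand) and Tmcc2 (chr1:134252588-134252607, − strand), and to ends of liver and cohesin genes, Rara (chr11:98836853-98836872, + strand), Asl (chr5:130486999-130487018, + strand), Cyp3a13 (chr5:138334375-138334394, + strand) and Nipbl (chr15:8241414-8241433, − strand). They are shown because the results on orientation and on gene lists return to them. Ckb and Tmcc2 were chosen after their values were seen, as were all convergent examples named by strength.
Ckb: tgagcCTGACCAGCAGGTGGCAGCAcaaga
Tmcc2: cagttGTAGCCACAAGGGGTCAGCAgagtc
Rara: ctatgTCAGCCACTAGGTGGCAGCAgctgc
Asl: ccatgGAAGCCACAAGAGGGCACCAgatcc
Cyp3a13: tcacaGAGGCCAGCAGAGGGCAATAgatca
Nipbl: cgtcaGTGTCCAGTGGATGGCAGGCtccta

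The 1279 peaks lay at the ends of 1234 genes, which are 6.98% of the 17684 protein-coding genes whose end has any sequence over 2 kb from a transcript start. Another 3734 autosomal genes have none and could not hold such a peak. A single peak was found at 1190 ends, 2 peaks at 43 ends, and 3 at the end of Rab43, which encodes a small GTPase of vesicle traffic. The 3 Rab43 peaks were weak, with a Rad21 fold enrichment of 2.55, 2.99 and 2.58 over local background, none overlapped CTCF, and all lay in the UTR. Within 1 kb of more than 1 gene end were 74 peaks, each counted once at the nearest end. The rule on transcript starts removed 875 of the 2154 autosomal Rad21 peaks within 1 kb of a gene end.

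Gene ends were richer in cohesin peaks than the rest of the distal genome, and chiefly in CAC peaks. Per megabase of sequence that met the rule on starts, called eligible sequence here, there were 34.4 CAC peaks within 1 kb of a gene end (95% interval 32.3 to 36.6) and 14.8 elsewhere (14.64 to 14.96), a ratio of 2.33 (2.18 to 2.48). CNC peaks numbered 8.95 (7.90 to 10.1) and 6.38 (6.27 to 6.48) per megabase, a ratio of 1.40 (1.24 to 1.59). The CNC ratio changed with the peak threshold. With both lists restricted it was 1.04 (0.838 to 1.28) at a −log10 q of at least 10 and 0.679 (0.475 to 0.941) at a fold enrichment of at least 5, where 29 of the 36 CNC peaks at gene ends lay over a CTCF peak that the limit had removed. With the limit on the Rad21 list alone, a setting chosen after the data were seen, it was 1.10 (0.828 to 1.44) and 0.329 (0.132 to 0.679), the latter from 7 CNC peaks at gene ends. GC content was 44.5% in the eligible sequence at gene ends and 41.5% elsewhere, and its part in the densities was not tested.

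The sequence around the gene end had nearly as high a density. Between 1 and 5 kb from a gene end, CAC peaks numbered 30.7 per megabase (29.7 to 31.7) and CNC peaks 7.28 (6.79 to 7.80). Against this reference, chosen after the data were seen, the window of 1 kb had 1.12 times the CAC density (1.04 to 1.20) and 1.23 times the CNC density (1.07 to 1.41). For CAC peaks the gene end itself separated a lower from a higher density. CAC peaks numbered 29.0 per megabase in the last 500 bp of the gene (25.2 to 33.1) and 39.2 in the first 500 bp beyond it (34.9 to 44.0), and they were still at 34.2 per megabase between 2500 and 3000 bp downstream (30.1 to 38.6). CNC density was 8.35 per megabase in the last 500 bp of the gene (6.40 to 10.7) and 9.15 in the first 500 bp beyond it (7.12 to 11.6), intervals that overlap. The highest CNC bin was from 500 to 1000 bp beyond the end, at 11.6 (9.30 to 14.4), an interval that overlaps those of the bins on either side.

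**Figure D1:**
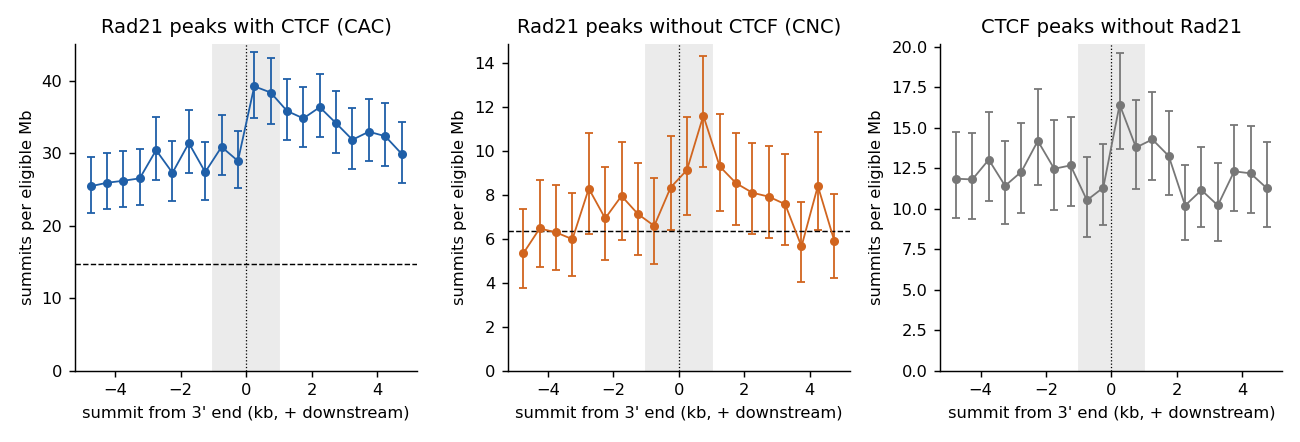
Density of peak summits around the 3′ ends of protein-coding genes, in bins of 500 bp, for CAC, CNC and Lone CTCF peaks (summits per Mb of eligible sequence, each panel with its own axis from 0). Points are counts per Mb, bars their 95% Poisson intervals, the grey band the window of 1 kb, the dotted line the gene end and the dashed line the density in other distal sequence (none drawn for Lone CTCF). CAC density stepped from 29.0 per Mb in the bin before the gene end to 39.2 in the bin after it.

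Of the 1279 peaks, 735 lay downstream of the gene end and 544 upstream of it or at it. The downstream side had 1.32 times the density of the upstream side (1.18 to 1.47), with 1.30 times for CAC (1.15 to 1.48) and 1.39 times for CNC peaks (1.08 to 1.79). By annotation 634 summits were intergenic, 366 in a UTR, 156 in an intron, 104 in a coding exon and 19 in a non-coding exon. CTCF overlap varied little among these places, from 78.1% in UTRs (73.6 to 82.1%) to 82.7% in coding exons (74.3 to 88.8%), with overlapping intervals.

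CTCF accompanied most cohesin at gene ends. Of the 1279 peaks, 1015 were CAC (79.4%, 77.1 to 81.5%) and 264 were CNC, where 73.4% of all autosomal Rad21 peaks overlapped CTCF. Among the 46166 other distal peaks the share was 69.9% (69.5 to 70.3%), lower by 9.47 percentage points (7.13 to 11.6). Peaks 1 to 5 kb from a gene end had a share of 80.8% (79.6 to 82.0%), an interval that overlaps that of the gene end peaks, and peaks farther away had 68.8% (68.3 to 69.2%). The share was 78.9% downstream (75.8 to 81.7%) and 80.0% upstream (76.4 to 83.1%) of the gene end.

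The higher CTCF share was also present at matched Rad21 strength, except among the strongest peaks. All autosomal Rad21 peaks were divided by fold enrichment into 4 bins of equal size. In the weakest bin, 45.9% of 320 gene end peaks and 34.6% of other distal peaks overlapped CTCF, a difference of 11.4 points (5.92 to 16.9). In the second bin the shares were 69.1% and 54.6%, a difference of 14.5 points (8.62 to 19.9). In the third bin they were 96.5% and 84.0%, 12.4 points apart (9.48 to 14.2). In the strongest bin all 415 gene end peaks and 99.7% of other distal peaks overlapped CTCF, leaving a difference of 0.322 points (−0.599 to 0.433).

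**Figure D2:**
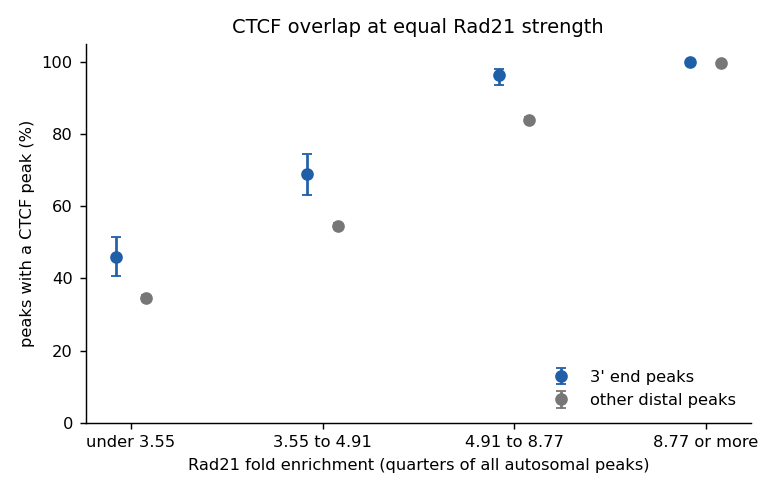
Share of Rad21 peaks that overlap a CTCF peak (%), in 4 bins of Rad21 fold enrichment that hold equal numbers of all autosomal peaks, for gene end peaks and other distal peaks. Points are shares and bars 95% Wilson intervals, which are smaller than the symbols for the other distal peaks. The gene end peaks are higher in the first 3 bins (45.9, 69.1 and 96.5%) and both sets are near 100% in the fourth.

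The median Rad21 fold enrichment was 5.45 at gene ends (5.14 to 5.85) and 5.12 at other distal peaks (5.07 to 5.14), a difference of 0.330 (0.0175 to 0.729). The interval of this difference included 0 when the window was 500 bp (−0.273 to 0.720), when chromosome X was included (−0.0274 to 0.692) and under either limit on peak strength. Within each class the gene end peaks were not the stronger ones. CAC peaks had a median of 6.98 at gene ends (6.54 to 7.48) and 7.13 elsewhere (7.01 to 7.22), intervals that overlap. CNC peaks had a median of 3.22 at gene ends (3.15 to 3.36), below the 3.54 of other distal CNC peaks (3.52 to 3.57). Between 1 and 5 kb from a gene end the medians were 7.80 for CAC (7.50 to 8.13), above that of the gene end peaks, and 3.34 for CNC peaks (3.27 to 3.39), with an interval that overlaps theirs. CNC peaks within 2 kb of a transcript start had a median of 3.14 (3.12 to 3.16). At gene ends the CAC median exceeded the CNC median by 3.75 (3.30 to 4.26). A fold enrichment of at least 5 was reached by 688 gene end peaks (53.8%), where 48.6% of all autosomal Rad21 peaks reached it. Among CNC peaks it was reached by 7 of 264 at gene ends (2.65%) and by 11.3% of other distal ones.

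**Figure D3:**
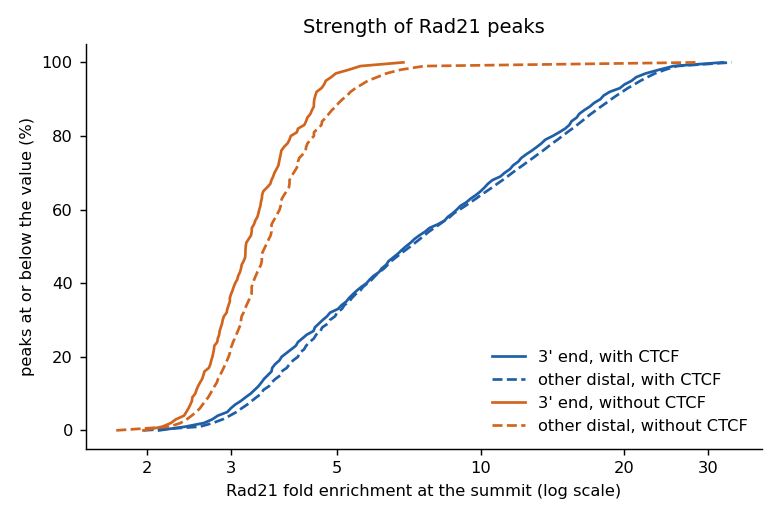
Cumulative distribution of Rad21 fold enrichment (x axis, log scale; y axis, percent of peaks at or below the value) for CAC and CNC peaks at gene ends (solid) and at other distal sites (dashed). The CAC curves lie close together, with medians of 6.98 and 7.13, and the CNC curve of gene ends lies to the left of the other, with medians of 3.22 and 3.54.

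The strongest peak was at Gja5, the gene of the gap junction protein connexin 40, with a Rad21 fold enrichment of 32.2 and a CTCF fold enrichment of 27.4. It lay in the UTR, 757 bp before the gene end, and its best match scored 12.99 bits, under the score for a motif call. Sfpi1, which encodes the myeloid and B cell factor PU.1, followed with a Rad21 fold enrichment of 29.0 in a coding exon, 523 bp before the end. Cyp4f16 and Gm9705 are neighbours on chromosome 17 within a cluster of cytochrome P450 genes of the 4f family, transcribed in the same direction. Their Rad21 fold enrichments were 28.7 and 27.1, both in the UTR. Ivd, whose enzyme acts in the breakdown of leucine in mitochondria, had a peak of 27.2 that lay 630 bp beyond its end.

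Also among the 10 strongest were Csrp1, a gene of a LIM domain protein, with a Rad21 fold enrichment of 27.4 at 892 bp beyond its end, and Nt5m, which encodes a mitochondrial nucleotidase, with 26.4. Ebf1, a gene of a B cell and adipocyte transcription factor, had 26.1 at 209 bp beyond its end. A830031A19Rik had 25.7 in a coding exon and Mab21l3 25.4 at 295 bp beyond the end. All 10 of these ends had a tandem next gene, while over all CAC peaks at gene ends 498 of 1015 did, and the median Rad21 fold enrichment of CAC peaks was 7.13 at convergent and 6.86 at tandem ends. A motif was called at 9 of the 10, on the strand of the gene in 5 and on the other strand in 4.

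The 10 strongest CNC peaks were much weaker, from 4.93 to 6.89 in Rad21 fold enrichment. The highest was in an intron of P2rx7, a gene of an ATP-gated ion channel of immune cells, at 6.89, and the nearest CTCF peak was 2546 bp away. 3110057O12Rik and Ptpro, the latter a receptor tyrosine phosphatase gene, had 5.95 and 5.93, and at Ptpro a CTCF peak lay 481 bp from the Rad21 peak. Banf2 (5.41), Cnksr3 (5.41), Psat1 (5.31) and Exog (5.27) followed. Psat1 encodes an enzyme of serine synthesis, and its peak was 19418 bp from the nearest CTCF peak. Gm13691 (4.98) and Tnks1bp1 (4.93) were also among the 10. None of the 10 reached the motif score, and the best match, at Exog, scored 10.95 bits.

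Many CNC peaks at gene ends were near a CTCF peak without touching it. The median gap to the nearest CTCF peak was 4509 bp, compared with 6131 bp for other distal CNC peaks. A CTCF peak lay within 1000 bp of 36 of the 264 (13.6%), within 5000 bp of 143 (54.2%) and within 20000 bp of 246 (93.2%). Among other distal CNC peaks 43.8% had a CTCF peak within 5000 bp. The density of CAC peaks was itself higher within 5 kb of gene ends than elsewhere, as given above, and its part in this difference was not tested.

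The CTCF motif was compared on even-numbered autosomes, which were not used to learn it. It was called at 276 of 419 CAC peaks at gene ends (65.9%, 61.2 to 70.2%) and at 55.6% of other distal CAC peaks (54.8 to 56.4%), a difference of 10.2 points (5.51 to 14.7). CAC peaks 1 to 5 kb from a gene end had it in 64.2% (61.7 to 66.6%). The difference from other distal peaks was 4.03 points (−0.399 to 8.03) when the motif was called at a 5% rate in flanking windows. CNC peaks at gene ends had a motif in 5 of 115 (4.35%, 1.87 to 9.78%) and other distal CNC peaks in 3.16% (2.77 to 3.61%). In the same 4 bins of Rad21 strength, the motif share of CAC peaks at gene ends was 30.5% in the weakest, then 52.6% and 64.2%, and 84.6% in the strongest. The corresponding shares of other distal CAC peaks were 23.2%, 33.9%, 47.8% and 80.4%. The intervals of the 2 sets overlapped in the weakest bin (20.3 to 43.1% against 21.3 to 25.3%) and in the strongest (78.5 to 89.2% against 79.4 to 81.4%), and not in the 2 between. At the 5% rate the shares at gene ends and elsewhere were 39.0% and 38.2% in the weakest bin. They were 59.2% and 49.1% in the second bin and 78.9% and 65.0% in the third. In the strongest bin the order turned, with 90.9% at gene ends and 94.0% elsewhere.

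CTCF itself was somewhat stronger at gene end CAC peaks than at other distal CAC peaks, with those 1 to 5 kb away not set apart. Its median fold enrichment was 11.2 at the 1015 CAC peaks (10.7 to 11.8) and 10.2 at other distal CAC peaks (10.1 to 10.4). The summits of the 2 factors were a median of 27 bp apart, and 90.7% were within 100 bp, compared with 30 bp and 87.8% elsewhere. Across the 1015 peaks, Rad21 and CTCF fold enrichment had a Spearman rho of 0.790, and across other distal CAC peaks 0.795. These are descriptions across peaks of the same pools. The median GC content of 201 bp around the summit was 51.2% at gene ends (50.7 to 51.7%) and 48.8% at other distal peaks (48.8 to 49.3%).

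Downstream of gene ends the motif lay on the strand of the gene more often than on the other strand. Of 647 CAC peaks with a motif on any autosome, the motif read in the direction of transcription at 362 (56.0%, 52.1 to 59.7%). Downstream of the gene end the share was 229 of 375 (61.1%, 56.0 to 65.9%), and among 272 upstream peaks it was 48.9% (43.0 to 54.8%). Tmcc2 and Rara are downstream examples on the strand of the gene, and Csrp1, Ebf1, Ckb and Asl are on the other strand. Where the next gene was tandem, the downstream share was 64.9% (57.7 to 71.4%), and where it was convergent 57.4% (50.3 to 64.2%), intervals that overlap. A like asymmetry was present farther out, with 57.2% of 1302 CAC peaks 1 to 5 kb downstream (54.5 to 59.9%) and 48.4% of 942 peaks 1 to 5 kb upstream (45.2 to 51.6%).

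The next protein-coding gene was convergent, that is, on the opposite strand, for 663 of the 1279 peaks (51.8%, 49.1 to 54.6%), and tandem for the other 616. A gene that covers the end counted as the next gene, so a convergent one may run through the end. Over all autosomal protein-coding genes 49.1% have a convergent next gene, and 49.6% of the eligible sequence lies at such ends. CAC peaks numbered 35.4 per megabase at convergent ends (32.4 to 38.5) and 33.5 at tandem ends (30.6 to 36.6), a ratio of 1.05 (0.931 to 1.20). CNC peaks numbered 9.99 (8.43 to 11.7) and 7.94 (6.58 to 9.51), a ratio of 1.26 (0.979 to 1.62). Both intervals include equal density. For CNC peaks the interval lay above equal density with a window of 2 kb, at a ratio of 1.31 (1.10 to 1.57), and with the next gene within 10 kb, at 1.52 (1.04 to 2.28). It included equal density at 1.15 with overlapping neighbours left out (0.886 to 1.502), at 1.16 with CTCF called by summits within 100 bp (0.934 to 1.43), and at 1.02 under the q limit (0.657 to 1.57), and the ratio turned to 0.726 under the fold limit (0.348 to 1.48).

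Where the neighbour was close, CNC peaks were denser at convergent ends. With the next gene up to 5 kb away, there were 50 CNC peaks at convergent ends and 8 at tandem ends, or 12.9 (9.56 to 17.0) against 4.28 (1.85 to 8.43) per megabase, a ratio of 3.01 (1.42 to 7.36). The CAC ratio at the same distance was 1.05 (0.798 to 1.40). Where the next gene overlapped the gene end, 27 CNC peaks were at convergent and 1 at tandem ends, a ratio of 8.51 (1.40 to 348), and the CAC ratio was 1.81 (1.04 to 3.37). The overlapping convergent group holds any gene on the opposite strand that covers the end, whether it stops nearby or runs through. From 5 to 20 kb the CNC ratio was 0.804 (0.496 to 1.28), and from 20 to 100 kb it was 1.06 (0.635 to 1.73). The CTCF share was 76.9% at convergent ends (70.8 to 82.0%) and 90.5% at tandem ends (82.3 to 95.1%) with a neighbour up to 5 kb away. The difference between the CNC and CAC ratios was not tested.

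**Figure D4:**
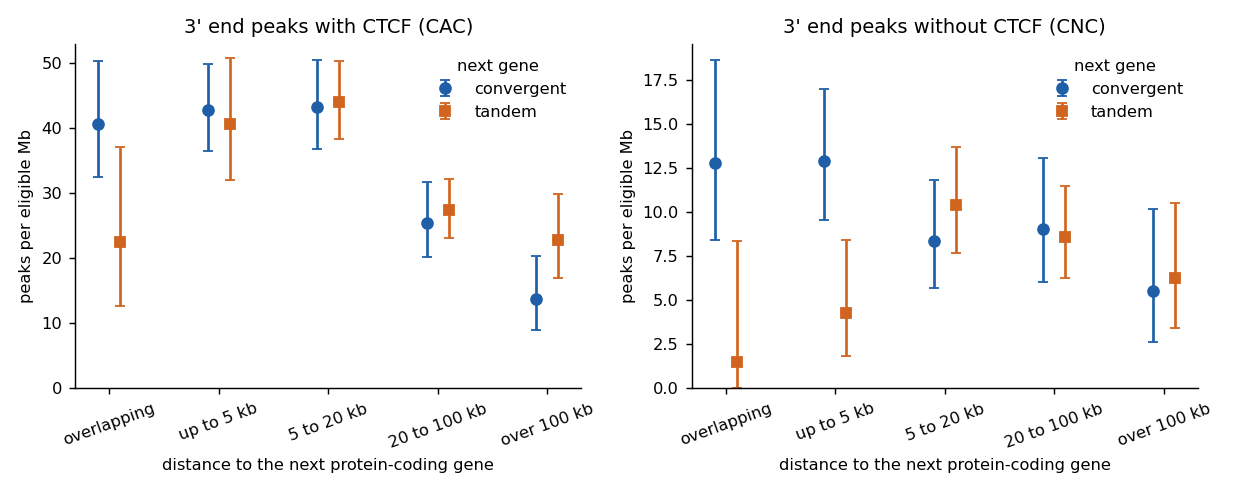
Rad21 peaks at gene ends per Mb of eligible sequence (y axis), by distance to the next protein-coding gene (x axis) and its orientation, for CAC (left) and CNC peaks (right). Points are counts per Mb and bars 95% Poisson intervals. With a neighbour up to 5 kb away, CNC density was 12.9 per Mb at convergent and 4.28 at tandem ends, while CAC density was 42.8 and 40.6.

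CAC density was lower where the neighbour was far away. It was 43.3 per megabase at convergent ends with the next gene 5 to 20 kb away (36.9 to 50.5) and 13.8 with the next gene over 100 kb away (8.92 to 20.3). At tandem ends these values were 44.0 (38.3 to 50.3) and 22.8 (17.0 to 29.9). With the next gene over 100 kb away the ratio of convergent to tandem ends was 0.605 for CAC peaks (0.359 to 0.995), the opposite direction to that of overlapping neighbours. For convergent pairs up to 10 kb apart that do not overlap, 156 of 325 peaks (48.0%, 42.6 to 53.4%) lay between the 2 gene ends, as did 45.6% of the eligible sequence at these ends. The share was 47.1% for CAC (41.0 to 53.2%) and 51.4% for CNC peaks (40.0 to 62.8%). The density between the ends was 1.10 times that in the rest of these windows (0.881 to 1.38), an interval that includes equal density.

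Strong CAC peaks were also found at ends with a convergent next gene. At Ckb, the brain creatine kinase gene, a peak with a Rad21 fold enrichment of 24.1 lay 812 bp beyond the end, facing Mark3 at a distance of 13128 bp. At Tmcc2 a peak of 24.4 lay 321 bp beyond the end, facing Nuak2. At Gm749 a peak of 24.1 faced Clps, the gene of the pancreatic protein colipase, 5592 bp away. Katnal2, with 25.4 inside an intron, and 2610020H08Rik, with 24.8, complete the 5 strongest with a convergent neighbour.

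Ends of genes that hepatocytes are known for held cohesin peaks more often than the average end when weak peaks were counted, and many of these peaks were CNC. On 3 lists of liver genes together, 35 of 230 eligible ends had a peak (15.2%, 11.2 to 20.4%), compared with 6.87% of the ends of all other genes (6.50 to 7.25%). Of the 39 peaks at these ends 20 were CNC (51.3%, 36.2 to 66.1%), compared with 19.7% of the peaks at all other ends (17.6 to 22.0%). Both CNC and CAC peaks there were weak, with a median Rad21 fold enrichment of 2.74 and 3.69, where the peaks at all other ends had 3.25 and 7.11. Over all gene ends, peaks in the weakest bin, under a fold enrichment of 3.55, overlapped CTCF in only 147 of 320 (45.9%, 40.6 to 51.4%). The CNC share of the liver lists was not compared at matched Rad21 strength. At a Rad21 fold enrichment of at least 5, a limit applied here after the data were seen, 6 of the 230 ends had a peak (2.61%, 1.20 to 5.57%), all CAC, compared with 3.87% of all other ends (3.59 to 4.16%), so the higher share was not present among strong peaks. The lists were chosen with earlier results on these data known, so the counts are a description.

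Plasma protein genes had a peak at 10 of 82 eligible ends (12.2%, 6.76 to 21.0%), 4 CAC and 6 CNC. The strongest was at F12, the gene of coagulation factor XII, with a Rad21 fold enrichment of 9.54 over a CTCF peak of 15.5, in a coding exon. F5, the gene of coagulation factor V, had 5.83 at 76 bp beyond its end, over a weak CTCF peak of 3.30. Itih3, which encodes a heavy chain of the inter-alpha-trypsin inhibitor, had a CAC peak of 3.92 and faces its convergent relative Itih4. C8b, the gene of a subunit of complement component C8, had a CNC peak of 3.61 and faces C8a. Igfals, which encodes the carrier of circulating insulin-like growth factors, had a CAC peak of 3.38, and F10, the gene of coagulation factor X, a CNC peak of 3.37.

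Genes of hepatocyte metabolic enzymes had a peak at 15 of 94 eligible ends (16.0%, 9.92 to 24.7%), with 11 CAC and 8 CNC peaks. Ugt2b34, a glucuronosyltransferase gene, had a Rad21 fold enrichment of 5.52, Cyp3a13, a cytochrome P450 gene of drug metabolism, 5.47, and Fmo5, a flavin monooxygenase gene, 5.45. All 3 were CAC peaks in the UTR, with CTCF fold enrichments of 10.7, 10.2 and 10.7. Cyp2f2 followed with 4.42, Pck1, which encodes the rate-limiting enzyme of gluconeogenesis, with 3.90, and Asl, a urea cycle gene, with 3.69, again as CAC peaks. At Pck1 the CTCF peak was 15.1-fold enriched, although no motif was called near the Rad21 summit. Ahcy, Pcx and Pklr, named after their values were seen, each had 2 peaks. At Ahcy, of the methionine cycle, both peaks were CNC. At Pcx, the pyruvate carboxylase gene, and Pklr, the liver pyruvate kinase gene, both were CAC.

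Liver transcription factor genes had a peak at 10 of 54 eligible ends (18.5%, 10.4 to 30.8%), 4 CAC and 6 CNC. Rara, the gene of a retinoic acid receptor, had the strongest, a CAC peak with a Rad21 fold enrichment of 6.92 and a motif beyond the gene end. Stat5a (3.47), Nr5a2 (3.46) and Onecut1 (2.95) had CNC peaks. Stat5a, which mediates growth hormone signals in liver, overlaps the convergent Stat3 at its end. Nr5a2 and Onecut1 encode factors of liver development and bile acid synthesis. Nr0b2, the gene of the repressor SHP, had a CAC peak of 3.36 over a weak CTCF peak of 2.49.

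The remaining lists had few members. Cohesin and its regulators had a peak at 2 of 19 eligible ends (10.5%, 2.94 to 31.4%), Nipbl with a CAC peak of 5.44 in a coding exon and Stag3, a meiotic cohesin subunit gene, with a CNC peak of 4.48. Cleavage, polyadenylation and termination factors had 1 of 21, at Papola, the poly(A) polymerase gene, with a CAC peak of 3.45. Cytosolic ribosomal protein genes had 3 of 42 (7.14%, 2.46 to 19.0%), close to the 6.98% over all genes. Per megabase of eligible sequence the ribosomal list had 64.9 peaks (13.4 to 190) and all genes had 43.4 (41.0 to 45.8). The 3 ribosomal peaks were CAC, among them those at Rpl38 (4.99) and Rpl13 (2.64). Chemosensory receptor genes, which form large clusters that are silent in liver, had 1 of 591 (0.169%, 0.0299 to 0.952%), a CNC peak of 3.05 at Vmn1r90. Eligible sequence per end differed between the lists, and per megabase the chemosensory genes had 2.47 peaks (0.0625 to 13.8).

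**Figure D5:**
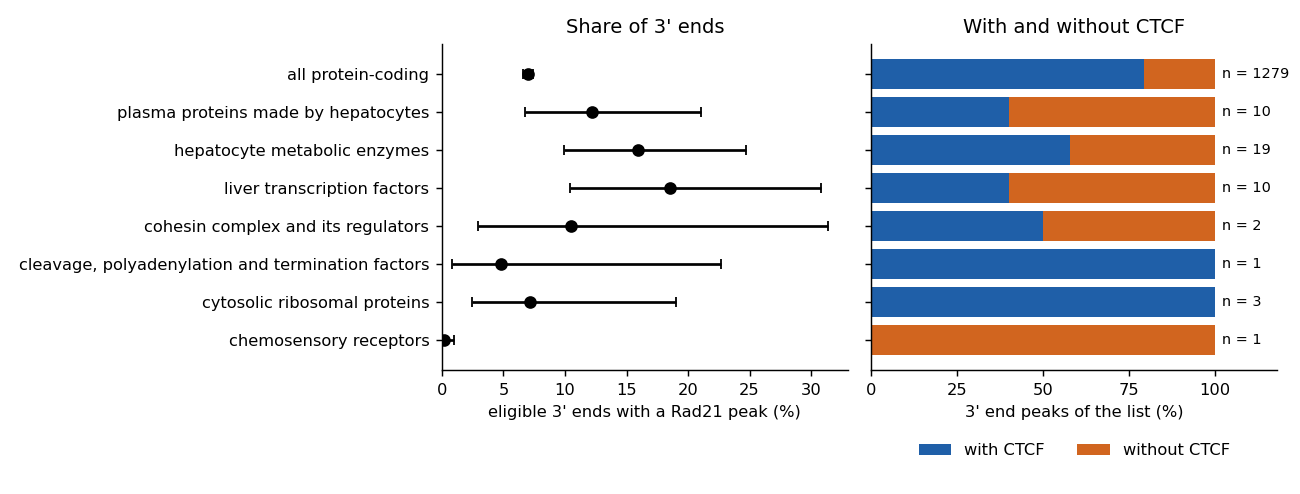
Left, share of eligible 3′ ends with a Rad21 peak (%) for all protein-coding genes and 7 gene lists, with 95% Wilson intervals. Right, share of the peaks of each list that are CAC and CNC (%), with the number of peaks beside each bar. The 3 liver lists lie at 12.2, 16.0 and 18.5% of ends, above the 6.98% of all genes, and chemosensory receptors at 0.169%.

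The values on either side of the limits of the rule are given as a description. Just inside the distance of 1 kb, the summit at Osbpl1a lay 1000 bp before the gene end with a Rad21 fold enrichment of 4.75 and no CTCF, and just outside it the summit at Ftsjd2 lay at 1001 bp with 9.74. Of the 20 peaks nearest to the limit on each side, 16 overlapped CTCF inside and 16 outside, with a median Rad21 fold enrichment of 4.67 and 4.47. For the limit on starts, the peak at Shpk was just inside, 2005 bp from a start with 6.06, and the peak at Fbxl15 just outside, 1990 bp from a start with 14.2. The 20 peaks nearest to this limit had a median of 6.22 inside and 8.58 outside.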

How the data were processed

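ChIP-seq for CTCF (4 female livers) and Rad21 (3 female livers) was mapped to mm9 with Bowtie2 by the authors, and reads without a unique position were dropped. Libraries were merged per antibody, peaks were called with MACS2, and those in blacklisted regions or made of duplicate reads alone were removed. The deposited lists give, for each of 68667 CTCF and 68656 Rad21 peaks, a fold enrichment (ratio) at the summit, −log10 of the p-value and of the q-value, a score and the summit offset. The score and the −log10 p-value were not used. Pooling hides variation between livers, and a threshold can leave bound sites without a peak. The sizes of CTCF and Rad21 fold enrichment were not compared with each other, apart from their rank correlation, and no column of a single library was left unused.

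Gene ends, starts and sequence came from the GENCODE annotation and genome of the same build. An end is the outermost annotated end of the gene, so inner polyadenylation sites count as gene body. The next gene was the protein-coding gene covering the end, otherwise the nearest downstream, and was called convergent when on the opposite strand. Shares have Wilson, their differences Newcombe, medians order-statistic, densities Poisson and density ratios exact conditional intervals. Differences of medians combine the 2 medians' intervals as Newcombe's method does. Python packages were numpy 2.4.6, pandas 2.3.3, scipy 1.17.1 and pysam 0.24.0, and overlaps were checked with bedtools 2.31.1. Overlaps, distances, orientations, density ratios, differences of shares and the motif learner were tested on simulated data, after which the placement of the motif seed was changed. The other steps were not tested in this way.

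The set of peaks, the gene lists and the comparisons were chosen with earlier results of these data known. Genes named are those of the 10 strongest CAC and 10 strongest CNC peaks, at most 6 per list by fold enrichment, ends with 3 or more peaks, and peaks next to the limits of the rule. Others are said in the text to be chosen later. Some genes that meet this rule are not reported here. Alternatives were windows of 500 bp and 2 kb, starts of protein-coding transcripts only, a −log10 q of at least 10, a fold enrichment of at least 5, overlap of 50% of the Rad21 peak, summits within 100 bp, the limits on the Rad21 list alone, sequence near gene ends as reference, chromosome X included, 2 other limits on the next gene, a 5% motif rate and a 50 bp motif window.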

Additional observations from a re-analysis of the deposited data

How the results depend on the processing

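No paired analysis was possible because the replicates of each antibody were pooled before the peaks were called. Of 86 values recomputed under alternatives, 68 stayed within the 95% interval of the reported value (for the number of peaks, within 1.5 times), 16 moved beyond it and 2 reversed. The number of peaks was 643 within 500 bp, 2472 within 2 kb and 688 at a fold enrichment of at least 5. The CTCF share of gene end peaks was 89.5% at a −log10 q of at least 10, 94.8% at a fold enrichment of at least 5, 75.5% with 50% overlap and 72.1% with summits within 100 bp. Its excess over other distal peaks stayed within its interval under each of its 8 alternatives. The excess of the CAC over the CNC median was 4.92, 4.75 and 4.31 at the q limit, the fold limit and with summits within 100 bp. The CNC density ratio to other distal sequence was 1.04 at the q limit and reversed to 0.679 at the fold limit. These limits thin the CTCF list too, and so class some Rad21 peaks over weak CTCF peaks as CNC. On the Rad21 list alone, a setting chosen after the data were seen, the ratio was 1.10 and 0.329. The ratio of convergent to tandem ends for CNC peaks was 0.726 at the fold limit on both lists (0.348 to 1.48). Against sequence 1 to 5 kb from a gene end, also chosen after the data were seen, the density ratios were 1.12 for CAC and 1.23 for CNC. The motif difference was 4.03 points at the 5% rate, and 6.06 and 5.68 points at the q and fold limits. The difference of median fold enrichment from other distal peaks was 0.543 at the q limit (−0.152 to 1.09) and 0.255 at the fold limit (−0.259 to 0.925). The cause of these changes was not tested beyond what the settings fix. The lists give no read depth, so what depth limits could not be assessed from them.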

Other observations

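By the same distance rule, 1404 CTCF peaks lay at gene ends, of which 1018 overlapped a Rad21 peak (72.5%), compared with 70.7% of other distal CTCF peaks. The 386 Lone CTCF peaks had a median CTCF fold enrichment of 3.76, where those with Rad21 had 11.3. Lone CTCF density was 11.3 per megabase in the last 500 bp of the gene (9.02 to 14.0) and 16.4 in the first 500 bp beyond it (13.7 to 19.6).

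Genes with a CAC peak at the end had a median length of 19.7 kb (18.1 to 21.9), genes with a CNC peak 19.5 kb (15.9 to 23.1), and eligible genes with neither 19.998 kb (19.5 to 20.5). The number of peaks per megabase of eligible gene end ranged from 23.0 on chromosome 16 to 56.0 on chromosome 17, and the CTCF share from 66.0% on chromosome 12 (51.7 to 77.8%) to 86.8% on chromosome 15 (76.7 to 92.9%). Peaks at least 1 kb wide were 12 of 1279 at gene ends (0.938%), 0.914% of other distal Rad21 peaks and 8.13% of the Rad21 peaks within 2 kb of a transcript start.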
